A study of Mus musculus with 3 samples.

Results

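Small leucine-rich proteoglycans are secreted proteins with a core of leucine-rich repeats, and most of them carry chondroitin, dermatan or keratan sulfate chains. The 10 genes described here are *Dcn*, *Lum*, *Bgn*, *Fmod*, *Ogn*, *Prelp*, *Aspn*, *Omd*, *Kera* and *Epyc*. They were chosen by name: every probe on the array that is not a control and whose gene name is one of these was taken, which gave 14 probes of 10 genes out of 41174 probes and 22349 genes with a symbol. *Dcn*, *Epyc*, *Prelp* and *Bgn* had more than 1 probe.

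The choroid plexus epithelium (CPE) is the cell layer that covers the choroid plexus and secretes cerebrospinal fluid. It was cut by laser from frozen brain sections of 3 healthy, adult, untreated C57BL/6 mice, and its RNA was amplified and labelled with the red dye, Cy5. On each of 3 Agilent arrays it was hybridised against a common reference, RNA from the choroid and retinal pigment epithelium (RPE) of the C57BL/6 mouse eye, labelled with the green dye, Cy3. The dyes were not swapped, so a preference of a probe for a dye is part of every ratio, and a common reference served all arrays, so no error below includes a spread between reference animals.

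These proteoglycans are best known from connective tissue made by fibroblasts. Many of them bind fibrillar collagen and set how thick its fibrils grow and how they are spaced, and several bind growth factors such as TGF-beta. In the eye, lumican and keratocan carry keratan sulfate in the corneal stroma, and decorin and lumican are also found in the sclera. In the choroid plexus, a core of loose connective tissue with vessels lies beneath the epithelium.

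The samples were first set against markers of cell types. All 10 CPE markers ranked above the 90th percentile of the CPE channel, and 8 of them were higher in the CPE than in the reference, with a median log2 ratio of 2.50 over the 10. *Otx2* and *Slc4a5* did not pass the test, at 0.14 and -0.09. Of 13 fibroblast and stroma markers, 11 were well above background in the CPE of every mouse. Their summed level was 36909, 33224 and 31914 in the CPE of mice 1, 2 and 3, and 49573, 48210 and 47857 in the reference on the same arrays, so genes that mark stroma gave signal in the CPE samples too. The laser cut was meant to leave the vascular stroma out. Whether the epithelium itself or stromal RNA gave this signal, and its part in the results below, was not tested. In the reference, the cornea markers *Krt12* and *Aldh3a1* gave signal beside RPE markers, with log2 ratios of CPE over reference of -3.45 and -3.31. The photoreceptor markers *Gnat1* and *Nrl*, at -4.91 and -6.37, and 4 of 6 macrophage markers, such as *Lyz2* at -3.40, were lower in the CPE too. The arrays also differed in signal: 58.5%, 46.0% and 85.6% of probes were well above background in the CPE channel of mice 1, 2 and 3. The CPE background fitted by the scanner software had a median of 81.15, 82.57 and 362.6 on these arrays. The weights that limma gave the arrays were 1.89, 0.95 and 0.55, the lowest for mouse 3.

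Of the 10 proteoglycans, 8 were well above background in both channels on every array, and of these 5 were lower in the CPE than in the RPE and choroid reference, 1 was higher and 2 did not pass the test. The lower genes were *Dcn*, *Lum*, *Aspn*, *Omd* and *Fmod*, the higher gene was *Prelp*, and *Ogn* and *Bgn* were not called. *Kera* and *Epyc* were called lower as well, which made 7, but they entered the test through the reference channel alone, where they are bright, so these calls were favoured by the filter. The call required an adjusted p below 0.05 in limma and a change of at least 2-fold, and each gene was read by its brightest probe, called its main probe. Over all 15855 genes tested in the same way, 11.3% were lower, 8.77% were higher and 20.0% were called in either direction. Counted by probe, 8 of the 13 tested proteoglycan probes were lower and 2 higher, against 10.2% lower, 7.09% higher and 17.3% either way over all 25841 tested probes. Among the lower ones, the *Kera* probe and both *Epyc* probes entered the test through the reference channel alone. So did the second *Dcn* probe, which was not called. The median log2 ratio of the 10 proteoglycans, *Kera* and *Epyc* included, was -1.30, against -0.02 over all tested genes. With median centring in place of loess 4 were called lower and 1 higher, and *Ogn* alone changed sign. Those 4 were *Dcn*, *Aspn*, *Kera* and *Epyc*. Of the 5 lower genes measured in both channels, *Lum*, *Omd* and *Fmod* lost their call. CPE and reference were each RNA of many cells, so fewer cells of a type and less RNA per cell cannot be told apart.

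**Figure D1:**
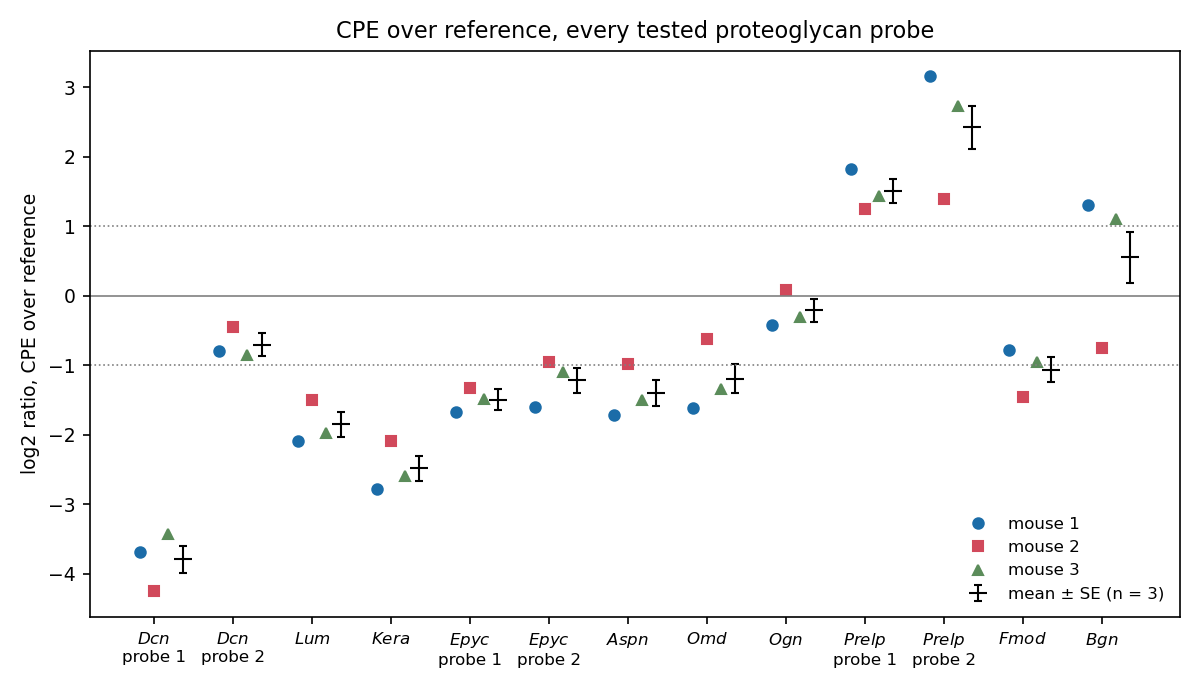
Log2 ratio of CPE over reference (vertical axis) for the 13 tested probes, with 1 point for each mouse and the mean with its standard error from limma (n = 3) beside them; dotted lines mark a change of 2-fold. Where a gene had several tested probes, probe 1 is the main one. *Dcn* probe 1 lay lowest, at a mean of -3.79, both *Prelp* probes lay above the upper dotted line in every mouse, and *Bgn* in mouse 2 lay on the other side of 0 from mice 1 and 3.

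Ranked by mean ratio, the order from highest to lowest was *Prelp*, *Bgn*, *Ogn*, *Fmod*, *Omd*, *Aspn*, *Epyc*, *Lum*, *Kera* and *Dcn*. The values of the 3 mice did not overlap between *Ogn* and *Fmod*. All other neighbours from *Prelp* to *Lum* overlapped, so the places from *Fmod* to *Lum* are not set apart by the spread between mice. *Kera* and *Dcn* have no exact place, since *Kera* was at background in the CPE and *Dcn* was saturated in the reference. With the ratio of the scanner software *Kera* lay below *Dcn*, at -5.06 and -3.64.

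The stretch before the transcription start is shown for 4 genes: *Prelp*, the gene that was higher in the CPE, *Ogn* and *Bgn*, which were not called, and *Kera*, which had no signal above background in the CPE. The sequences are the 250 bases before the start in RefSeq (build GRCm38.p6), 5′ to 3′ on the strand of the gene. Capitals mark matches on either strand to TATAAA (the TATA box), CCAAT (the CCAAT box) or GGGCGG (the GC box). *Prelp* lies at chr1:133921402-133921651 on the minus strand, *Ogn* at chr13:49607765-49608014, *Bgn* at chrX:73483351-73483600 and *Kera* at chr10:97606955-97607204, the last 3 on the plus strand.
Prelp: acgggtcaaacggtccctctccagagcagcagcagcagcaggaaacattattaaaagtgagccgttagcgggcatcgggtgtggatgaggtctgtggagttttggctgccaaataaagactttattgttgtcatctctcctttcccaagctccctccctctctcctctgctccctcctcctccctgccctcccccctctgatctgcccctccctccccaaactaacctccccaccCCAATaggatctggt
Ogn: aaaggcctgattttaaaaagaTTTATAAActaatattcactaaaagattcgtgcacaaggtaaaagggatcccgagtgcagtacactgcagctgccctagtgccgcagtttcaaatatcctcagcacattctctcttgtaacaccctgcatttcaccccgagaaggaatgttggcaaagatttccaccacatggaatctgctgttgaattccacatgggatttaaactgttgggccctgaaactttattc
Bgn: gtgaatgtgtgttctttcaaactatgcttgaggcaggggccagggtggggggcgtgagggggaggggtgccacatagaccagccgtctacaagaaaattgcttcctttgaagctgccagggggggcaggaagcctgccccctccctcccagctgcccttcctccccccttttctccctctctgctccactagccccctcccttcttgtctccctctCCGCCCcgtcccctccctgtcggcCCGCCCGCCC
Kera: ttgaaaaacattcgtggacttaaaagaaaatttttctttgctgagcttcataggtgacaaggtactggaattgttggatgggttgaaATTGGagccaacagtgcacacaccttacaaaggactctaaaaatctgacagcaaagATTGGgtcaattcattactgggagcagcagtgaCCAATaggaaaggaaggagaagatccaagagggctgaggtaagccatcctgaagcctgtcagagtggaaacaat
Of the 32851 mouse promoters in the same table, 12.4% held TATAAA, 33.8% held CCAAT and 32.7% held GGGCGG in these 250 bases. The *Bgn* stretch had 3 GGGCGG matches, of which a pair overlap at the 3′ end, and a G and C content of 64.4%, above the median of 52.4%. *Prelp* had 1 CCAAT match and 55.6% G and C. *Ogn* had 2 TATAAA matches, which are the opposite strands of 1 stretch and overlap, and 42.0% G and C. *Kera* had 3 CCAAT matches and 42.4% G and C. A match describes these letters and says nothing of a factor that binds there. Entries were found for 8 of the 10 genes. *Dcn* and *Lum* had none.

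Class I of the family holds decorin, biglycan and asporin. Decorin (*Dcn*) carries a single chondroitin or dermatan sulfate chain, binds type I collagen and restrains its fibrils. Its main probe (NM_007833, chr10:96947287-96947346, plus strand, build mm8 as for all probes here) was among the brightest of the whole reference channel, at percentile 99.99. The uncorrected reference intensity was 65154.7, 65196.5 and 50384.1 on arrays 1, 2 and 3, and the spot was saturated on the first and second of these. There the reference intensity is a floor, so saturation may hide a part of the difference in mice 1 and 2. Their ratios are still not the smallest possible difference, since they also depend on the normalization. In the CPE the intensity was 13486.9, 7097.7 and 8689.7, without saturation.

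The log2 ratio of *Dcn* was -3.69, -4.25 and -3.43 in mice 1, 2 and 3, with a mean of -3.79 ± 0.19 (SE, n = 3). All mice lay well below 0, including mouse 3, whose array was not saturated. The measured mean was a 13.8-fold lower level in the CPE than in the reference, with an adjusted p of 1.54e-05 in limma. With the reference saturated on 2 of 3 arrays, its SE does not cover what saturation hides. This mean is not a lower bound of the difference either. Mouse 3, without saturation, gave -3.43, and the mean under median centring in place of loess was -2.84. In rank, *Dcn* was in the high class of the CPE, at percentile 98.3, and it stayed between 97.8 and 98.5 in every mouse. A low ratio against the reference and a high rank in the CPE therefore stood side by side in this gene.

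The other *Dcn* probe (AK052759, chr10:96910401-96910460) lies 36886 bases upstream of the main probe and was designed on a cDNA clone. Its log2 ratio was -0.80, -0.45 and -0.86, with a mean of -0.70 ± 0.16 (SE, n = 3) and an adjusted p of 0.0118 in limma. It was well above background in the CPE of 1 of 3 mice and lay at percentile 9.67, so its size is set by values near the background. It was not called, but it passed the threshold with a normexp offset of 16, at -1.03, and with the ratio of the scanner software, at -2.01. Both probes of *Dcn* were below 0 in every mouse. The upstream one entered the test through the reference channel alone, so its sign and these calls were favoured by the filter. With the mean over the probes as the value of the gene, the ratio was -2.25.

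Biglycan (*Bgn*), which carries a pair of chondroitin or dermatan sulfate chains and can signal through Toll-like receptors, was the gene on which the mice disagreed. Its main probe (NM_007542, chrX:69745935-69745994) had an uncorrected CPE intensity of 1752.2, 205.2 and 2525.2 in mice 1, 2 and 3, against 418.2, 400.1 and 692.1 in the reference. The log2 ratio was 1.31, -0.75 and 1.10. Mice 1 and 3 were above 2-fold higher in the CPE and mouse 2 was lower. The mean of 0.55 ± 0.37 (SE, n = 3) had a 95% interval of -0.30 to 1.41 and an adjusted p of 0.272 in limma.

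Without mouse 2 the *Bgn* ratio was 1.21, with an adjusted p of 0.000881 in limma, and passed the threshold as higher in the CPE. Without mouse 1 it was 0.18 and without mouse 3 it was 0.28, with no call in either case. Mouse 2 was the one that disagreed, so leaving it out does not settle the direction. The CPE rank of *Bgn* was percentile 84.3, with 88.2, 67.3 and 91.6 in the 3 mice. The SD of its ratio, 1.13, was larger than that of 99.46% of tested probes. The other *Bgn* probe (BC057185, chrX:69744406-69744465), 1529 bases upstream, was above background on 1 of 3 arrays in each channel and was not tested.

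Asporin (*Aspn*), a class I protein that lacks the usual site for a chain and binds collagen and calcium, was lower in the CPE. Its probe (NM_025711, chr13:49579047-49579106) gave log2 ratios of -1.72, -0.99 and -1.51. All mice were below 0, and mouse 2 was nearest to it. The mean was -1.40 ± 0.18 (SE, n = 3), a 2.65-fold lower level, with an adjusted p of 0.00101 in limma. *Aspn* ranked at percentile 61.0 in the CPE, in the moderate class.

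Class II holds fibromodulin, lumican, prolargin, keratocan and osteomodulin. Most of its members can carry keratan sulfate. Prolargin (*Prelp*), a heparin-binding protein that anchors basement membranes to the connective tissue beneath them, was the gene of the family that was higher in the CPE. Its main probe (NM_054077, chr1:135726768-135726827, minus strand) had an uncorrected CPE intensity of 24901.6, 15328.7 and 15460.4, against 2960.5, 3651.6 and 3153.8 in the reference. By these uncorrected values the CPE was brighter on every array. That alone gives no direction, since the same held for *Ogn*, which was not called.

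The log2 ratio of *Prelp* was 1.82, 1.25 and 1.44, with a mean of 1.50 ± 0.17 (SE, n = 3). This is a 2.83-fold higher level in the CPE, with a 95% interval of 1.10 to 1.90 and an adjusted p of 0.000508 in limma. *Prelp* ranked at percentile 99.2 of the CPE and kept between 99.1 and 99.3 in all mice, the narrowest range of the 10 genes. Tested against a change of 2-fold instead of 0, it did not pass, with an adjusted p of 0.141 in limma.

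A second *Prelp* probe (chr1:135731455-135731514) targets the same transcript record and lies 4687 bases toward its 5′ end. Its log2 ratio was 3.15, 1.39 and 2.73, with a mean of 2.42 ± 0.31 (SE, n = 3), which is 5.37-fold higher in the CPE with an adjusted p of 0.000867 in limma. Both probes were higher in every mouse. They differed in mouse 2, where the uncorrected CPE intensity of the 5′ probe was 237.1, against 2964.7 in mouse 1 and 3920.5 in mouse 3, while the main probe did not show such a drop. In rank the 5′ probe was moderate, at percentile 88.8, with 92.9, 71.0 and 94.5 in the mice.

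Lumican (*Lum*), a keratan sulfate proteoglycan that spaces collagen fibrils, was lower in the CPE and high in rank. The probe (NM_008524, chr10:97002264-97002323) had an uncorrected CPE intensity of 5070.1, 5647.7 and 4691.8, against 9076.2, 9046.0 and 9580.8 in the reference. The log2 ratio was -2.08, -1.50 and -1.98. No mouse came near 0, and the mean of -1.85 ± 0.17 (SE, n = 3) is a 3.61-fold lower level, with an adjusted p of 0.00021 in limma. Under median centring in place of loess, the ratio was -1.03 and the call was lost, with an adjusted p of 0.0564 in limma. *Lum* ranked at percentile 96.6.

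Keratocan (*Kera*), known from the corneal stroma, was above background in the reference on every array and in the CPE on none. Its probe (NM_008438, chr10:97043284-97043343) had a CPE intensity of 1.001, 0.960 and 1.025 times the background surface that the scanner software fitted, so the CPE channel held no signal to tell from background. In the reference the spot was 4.67, 4.43 and 2.47 times that surface. The log2 ratio was -2.78, -2.08 and -2.59, with a mean of -2.48 and an adjusted p of 6.7e-05 in limma. *Kera* entered the test only through the reference, so this p is no support for its direction.

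Because the CPE value of *Kera* is only a limit, a bound was also taken. At this bound the level was 5.38-fold lower in the CPE than in the reference. The bound sets the mean of the reference against a CPE value, both after loess and Aquantile normalization. On each array this value was the larger of the measured *Kera* level and the dimmest level still well above background. Its mean log2 level of 6.35 was close to the measured 6.29, so the bound nearly repeats the measured 5.59-fold. The bound holds for this processing only and is open to dye bias. Without background correction the log2 ratio of *Kera* was -1.97. *Kera* was the only gene of the 10 in the very low class, at percentile 3.14. With the processed ratio of the scanner software its log2 ratio was -5.06. The cornea markers *Krt12* and *Aldh3a1* had ratios in the same direction, as given above, and their part in the *Kera* result was not tested.

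Osteomodulin (*Omd*), a keratan sulfate proteoglycan of bone, was lower in the CPE, but unevenly so. Its probe (NM_012050, chr13:49604415-49604474) gave log2 ratios of -1.61, -0.63 and -1.35. Mouse 2 alone was within 2-fold of the reference. The mean was -1.19 ± 0.21 (SE, n = 3), a 2.29-fold lower level, with an adjusted p of 0.00384 in limma. The call was lost without mouse 1, at -0.99, and under median centring, at -0.80. *Omd* ranked at percentile 65.8.

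Fibromodulin (*Fmod*), which binds type I collagen and takes part in fibril assembly, was the weakest of the lower genes. Its probe (NM_021355, chr1:135863832-135863891) gave log2 ratios of -0.78, -1.46 and -0.95. Only mouse 2 was more than 2-fold lower. The mean was -1.07 ± 0.18 (SE, n = 3), a 2.09-fold lower level, with an adjusted p of 0.00318 in limma. Without mouse 2 it was -0.87, without background correction -0.99 and under median centring -0.55, each below the 2-fold limit. *Fmod* ranked at percentile 78.6.

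Class III was represented by osteoglycin and epiphycan. Osteoglycin (*Ogn*), also called mimecan, can carry keratan sulfate and is found in many connective tissues. Its probe (NM_008760, chr13:49636117-49636176) had an uncorrected CPE intensity of 6498.0, 5986.0 and 3553.7, against 3788.8, 3429.9 and 2327.4 in the reference. The log2 ratio was -0.42, 0.09 and -0.30, on both sides of 0. The mean of -0.21 ± 0.17 (SE, n = 3) had a 95% interval of -0.60 to 0.18, and the adjusted p was 0.361 in limma. A difference of 2-fold lies outside this interval, but the interval does not cover dye preference or the choice of normalization. Under median centring the sign turned, to 0.58, outside this interval and again with no call. *Ogn* was high in the CPE, at percentile 96.5, with 94.9 to 97.5 in the mice.

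Epiphycan (*Epyc*), a dermatan sulfate proteoglycan of growth cartilage, had a pair of probes 120 bases apart. The main one (NM_007884, chr10:97110899-97110958) gave log2 ratios of -1.67, -1.33 and -1.49, with a mean of -1.50 ± 0.16 (SE, n = 3) and an adjusted p of 0.000337 in limma. The other (chr10:97111019-97111078) gave -1.61, -0.95 and -1.10, with a mean of -1.22 ± 0.18 (SE, n = 3) and an adjusted p of 0.00173 in limma. Both were called lower, but both entered the test through the reference channel alone. In the CPE they were well above background in 1 mouse each, mouse 1 for the main probe and mouse 3 for the other. The *Epyc* difference therefore rests on CPE values near the background, and the ratio of the scanner software was -3.30. *Epyc* ranked at percentile 37.3, with 13.8 to 53.5 in the mice.

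**Figure D2:**
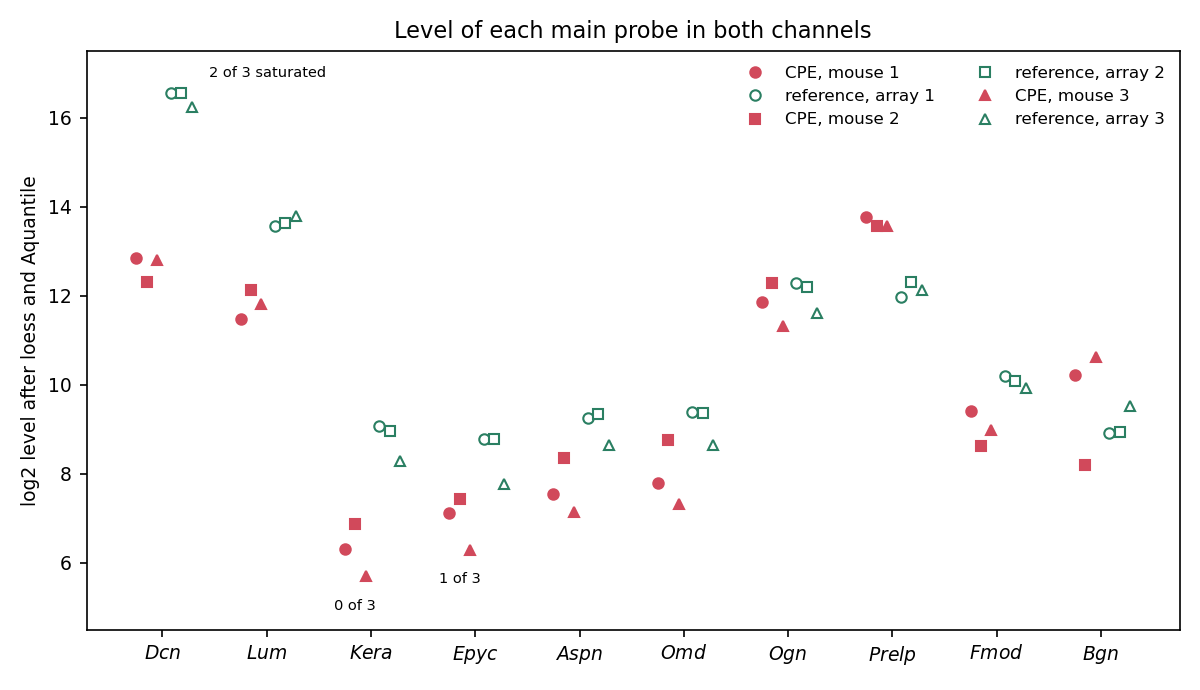
Log2 level (vertical axis, after loess and Aquantile normalization) of the main probe of each gene in the CPE channel (filled) and in the reference channel (open) on the 3 arrays; levels of different genes are not comparable, since probes differ. "0 of 3" and "1 of 3" give the CPE samples in which *Kera* and *Epyc* were well above background, and *Dcn* in the reference was saturated on 2 of 3 arrays. *Prelp* was the only gene whose CPE points all lay above the reference points.

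By the classes of the study, which rank every probe by its mean CPE intensity, *Dcn*, *Lum*, *Ogn* and *Prelp* were high (above the 90th percentile), 4 of 10 genes, against 15.3% of all genes read by their main probe. *Aspn*, *Omd*, *Fmod* and *Bgn* were moderate (from the 50th to the 90th), *Epyc*, between the 10th and the 50th, was low and *Kera* was very low (below the 10th). These classes held 45.8%, 32.6% and 6.35% of all genes. The high genes kept their class in every mouse. *Bgn* was high in mouse 3 alone, *Aspn* was low in mouse 3, *Epyc* was moderate in mouse 2, and *Kera* was low in mouse 2. When only probes above background in the CPE were ranked, *Aspn* and *Omd* fell to the low class, *Omd* at percentile 24.4. In the deposited log2 table *Dcn* had a value on array 3 only, and the high class there held 3 of the genes.

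**Figure D3:**
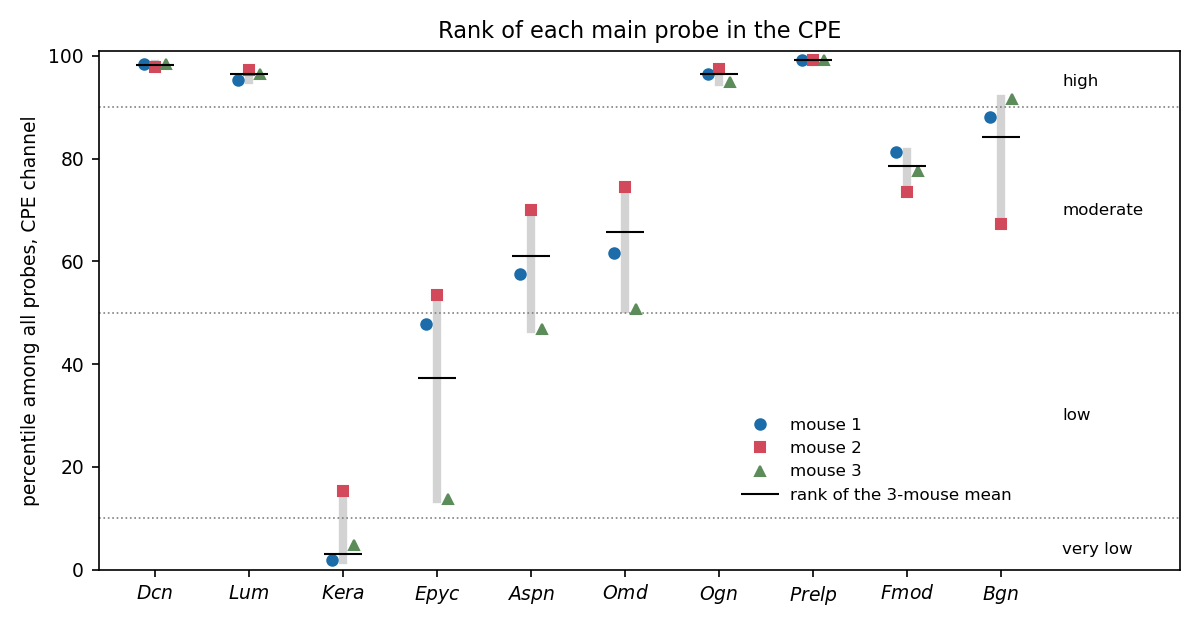
Percentile of the main probe of each gene among all probes of the CPE channel (vertical axis), by mouse, with the rank of the 3-mouse mean as a bar and the class limits at 10, 50 and 90 as dotted lines. *Dcn*, *Lum*, *Ogn* and *Prelp* stayed above 90 in every mouse, whereas *Bgn* spanned 67.3 to 91.6 and *Epyc* 13.8 to 53.5.

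The spread of the CPE level over the 3 mice was set beside that of the reference. By the common reference design the reference is taken as 1 RNA, whose spread would then be technical. Over the 17945 probes well above background throughout, the median SD of the log2 level was 0.38 in the CPE and 0.19 in the reference. *Bgn* had the widest spread of the main probes in the CPE, at 1.30, with 0.34 in the reference. *Prelp* had the narrowest, at 0.12 in the CPE and 0.17 in the reference, and was the only main probe with a smaller SD in the CPE. Its 5′ probe did not share this, with an SD of 1.42 in the CPE and 0.61 in the reference. For *Epyc* the SDs were alike, at 0.59 and 0.58. These SDs depend on the normalization: with each channel centred on its median, *Prelp* had 1.01 and 1.00.

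For several of the genes the ratio of mouse 2 differed from those of mice 1 and 3, and not in 1 direction. Set against the mean of the other mice, the ratio of mouse 2 differed by -1.95 for *Bgn*, -0.69 for *Dcn* and -0.59 for *Fmod*. It differed by 0.85 for *Omd*, 0.62 for *Aspn* and 0.53 for *Lum*. The 0.60 of *Kera* rests on CPE values at background in every mouse. For *Bgn* only 0.31% of tested probes had a lower difference, and for *Omd* 97.89% had a lower one. Less extreme were *Dcn*, *Fmod*, *Lum* and *Aspn*, with 6.5%, 8.31%, 89.33% and 92.9% of tested probes lower. The difference of *Bgn* lay in the CPE channel, at -2.23 there, and was -0.28 in the reference channel. The 5 pericyte and smooth muscle markers had a summed CPE level of 3607 in that mouse, against 11761 and 13130 in mice 1 and 3, and none of them was at background. They did not move together: *Acta2* had a log2 ratio of -3.21 in mouse 2 and -0.36 and -0.37 in the others, and *Rgs5* had -1.55 against 0.24 and 0.25. *Tagln*, at -1.73 in mouse 2 and -1.69 in mouse 3, and *Des*, at 0.35 in mouse 2 and 0.37 in mouse 1, did not stand apart there. Its array was scanned on a day of its own, so day and mouse cannot be told apart, and the part of these markers in the *Bgn* result was not tested.

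For the 5′ probe of *Prelp*, mouse 2 was 1.55 lower than the mean of mice 1 and 3, and for the main probe 0.37 lower. Over 5233 genes with tested probes at least 100 bases apart, the difference of a mouse from the mean of the other mice was taken at the 5′ probe and at the 3′ probe. The first minus the second had a median of -0.30 in mouse 2, and of 0.14 and 0.18 in mice 1 and 3. It was below 0 for 73.1% of genes in mouse 2. The *Prelp* value was -1.17 in mouse 2, with 7.22% of genes lower, and 0.62 and 0.55 in mice 1 and 3. Without mouse 2 the log2 ratio was 2.94 at the 5′ probe and 1.63 at the main probe, so the 5′ ratio was the larger one with and without that mouse.

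Most of the genes lie beside each other in the genome. By RefSeq order, *Dcn*, *Lum*, *Kera* and *Epyc* follow each other on chromosome 10, *Ecm2*, *Aspn*, *Omd* and *Ogn* on chromosome 13, and *Optc*, *Prelp* and *Fmod* on chromosome 1, while *Bgn* lies on chromosome X among unrelated genes. All 4 genes on chromosome 10 were called lower in the CPE, with ratios from -3.79 to -1.50. Of these, only *Dcn* and *Lum* were measured in both channels, and the calls of *Kera* and *Epyc* were favoured by the filter. The other clusters were mixed. On chromosome 13, *Ecm2*, which codes for a matrix protein with leucine-rich repeats, was higher at 2.07, *Aspn* and *Omd* were lower and *Ogn* was not called. On chromosome 1, *Prelp* was higher, its neighbour *Fmod* was lower, and *Optc*, which codes for opticin of the vitreous, was at -0.81 and under 2-fold. Neighbours on both of these chromosomes therefore differed in direction.

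*Ecm2* was the only call among the other members of the wider family. Its ratios were 1.99, 2.21 and 2.01, with an adjusted p of 6.87e-05 in limma. Of 8 such genes 6 were tested, with a median of 0.30, and 1 call in 6 is near the 20.0% called among all tested genes. The 5 others tested, *Optc*, *Chad*, *Tsku*, *Podn* and *Podnl1*, lay between -0.81 and 0.83.

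Collagens of fibrils and filaments, the partners that these proteoglycans bind, were lower for 6 of 12 genes and higher for 0, with a median of -0.88. Over all tested genes 11.3% were lower and 8.77% higher. The lower ones were *Col6a3* at -2.91, *Col3a1* at -2.24, *Col1a2* at -1.75, *Col11a1* at -1.70, *Col12a1* at -1.59 and *Col1a1* at -1.19. *Col6a3* and *Col11a1* were well above background in the CPE of 2 of 3 mice. They entered the test through the reference channel alone, so their calls were favoured by the filter. The collagen list and the fibroblast markers share *Col1a1*, *Col1a2* and *Col3a1*. Of the 13 fibroblast markers 5 were lower, against 11.3% of all tested genes, with a median of -0.41. *Thy1* and *Mfap5* were the calls that the collagen list does not share, and *Mfap5* too entered the test through the reference channel alone. *Pdgfra*, a marker of fibroblasts, was at 0.65 and did not reach 2-fold.

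The counts for the enzymes that build the sugar chains stand beside 20.0% of all genes called in either direction. Of 5 tested enzymes for the linker between protein and chain, *B3gat3*, which adds the last sugar of the linker, was higher at 1.62, and the median was 0.30. Of 11 enzymes for chondroitin and dermatan sulfate, the sulfotransferases *Chst11* and *Chst15* were higher, at 1.82 and 1.15, none was lower, and the median was 0.53. The dermatan sulfate epimerase *Dse* was at -0.56. Of 5 enzymes for keratan sulfate, the sulfotransferases *Chst1* and *Chst5* were lower, at -1.55 and -1.43, none was higher, and the median was -0.06. *Chst5* was above background in the CPE of 1 mouse, so its call was favoured by the filter too.

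Of 10 growth factors and receptors to which these proteoglycans bind, *Tgfb3* and *Egfr* were lower, at -2.27 and -1.14, none was higher, and the median was 0.06. This is the share called among all genes, 20.0%. *Tgfb2* had a log2 ratio of 0.99 and stayed just under the 2-fold limit. Of 7 proteases that process or cut the core proteins, none was called, and the median was 0.18. *Bmp1*, the procollagen C-proteinase that also processes several of these proteoglycans, was at 0.46, and *Adamts5*, an aggrecanase, was at -0.88. The median over all tested genes was -0.02.

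**Figure D4:**
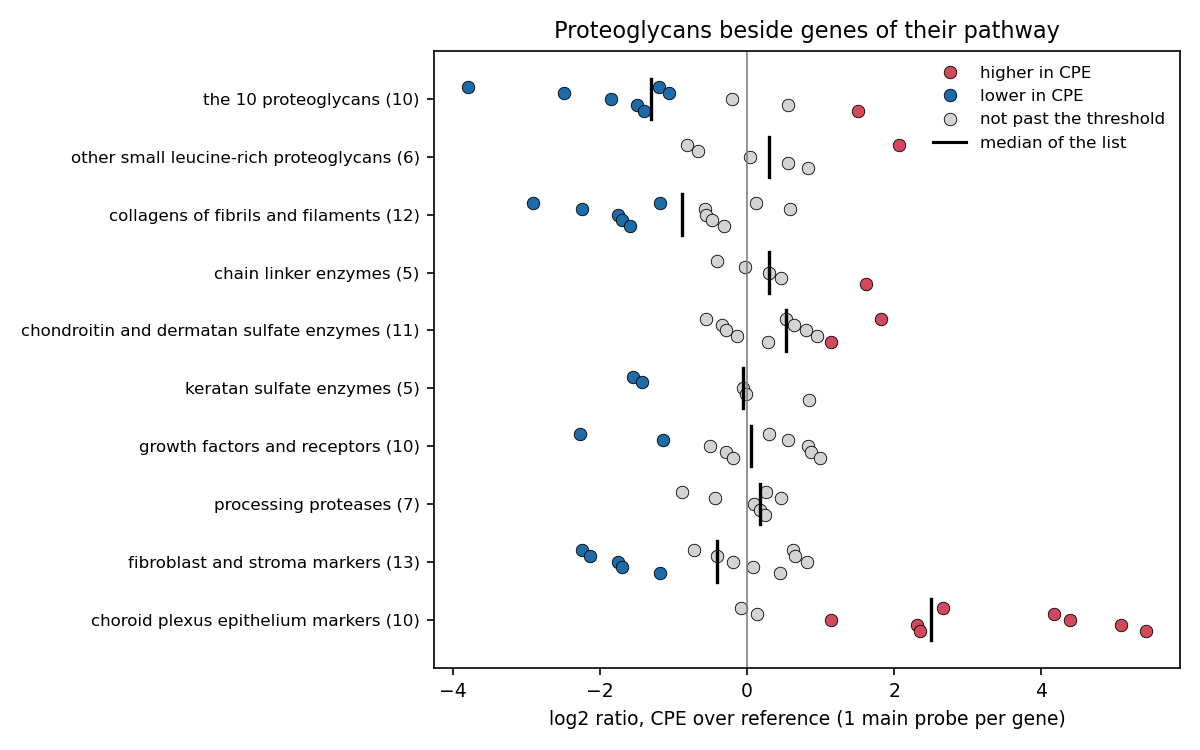
Log2 ratio of CPE over reference (horizontal axis) by main probe for the tested genes of each list (number in parentheses), coloured by call, with the median of each list as a black bar. The 10 proteoglycans and the collagens lie mostly below 0, at medians of -1.30 and -0.88, and the CPE markers lie mostly above it, at 2.50.

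The genes whose pattern was nearest to that of *Prelp* and *Dcn*, the highest and lowest ratios among genes measured in both channels, were found by Euclidean distance over the 3 ratios and the mean level of each channel, among 12531 genes. Because levels of different probes enter it, the distance describes likeness of the array readings and not of transcript amounts. For *Prelp* they were *Pgrmc1*, at a distance of 0.24, *Pcdhga9*, *St3gal5*, *Gpx8* and *Mtarc2*. For *Dcn* they were *Mt2*, at 0.93, *Lyz2*, *Hbb-bt*, *Igfbp5* and *S100a6*, the last at 1.47. The saturated *Dcn* values entered as measured. *Lyz2* is a gene of macrophages and *Hbb-bt* a globin gene of red blood cells, and neither is a proteoglycan.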

How the data were processed

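The authors made the deposited scanner tables with Agilent Feature Extraction 9.5.3.1. They hold red and green spot intensity on a linear scale, background intensity and flags and, per the file headers, the log10 ratio of processed red over green intensity. A deposited table, normalized between arrays by the authors with Aquantile, holds log2 values. They were levels of the CPE channel (rank correlation with the red level 0.997, 0.998 and 0.9996), with medians of 6.97, 6.92 and 6.89. Background correction of that table is not given in the sources used here. It had 0 columns without a sample.

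Scanner values were analysed with R 4.3.3 and limma 3.58.1. Control and outlier spots were left out, replicate spots averaged, and normexp (offset 50) and loess applied. A probe was tested (25841 of 41174) if well above background in the same channel, either one, on every array. The test was an intercept-only limma model with Benjamini-Hochberg adjustment over all of them. The main probe of a gene had the highest mean log2 intensity over both channels. Classes ranked log2 red intensity without background correction after Aquantile. The labels number 3 mice, taken as replicates, and 3 arrays limit the precision. The fit was tested on simulated data.

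All 10 genes and every probe were described. Of each list, called genes and defining markers could be named, and *Prelp* and *Dcn* got their 5 nearest genes. *Optc*, *Pdgfra*, *Dse*, *Tgfb2*, *Bmp1*, *Adamts5* and the uncalled family members were named after their values were seen. Genes and lists were chosen with earlier results of these data known. *Chadl*, *Dsel* and *Slc4a5* were matched through RefSeq synonyms. Probe coordinates come from the scanner files (mm8), and with no mm8 annotation at hand exons are not given. Alternatives were other background corrections and offsets, median centring, the scanner ratio, filters on dim probes, array weights, the mean over probes, a test against 2-fold and leaving out each mouse.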

Additional observations from a re-analysis of the deposited data

How the results depend on the processing

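Of the ratios of the 10 genes under the alternatives, 115 kept direction and side of the threshold, 11 lost their call, 1 gained one (*Bgn* without mouse 2) and 1 turned sign (*Ogn* under median centring, 0.58, adjusted p 0.258 in limma). The main counts were 7 proteoglycans lower and 1 higher, 13 listed genes higher, and 1833 probes higher and 2629 lower. Median centring in place of loess gave 4 proteoglycans lower, *Kera* and *Epyc* among them, 28 listed genes higher and 3744 probes higher. It moved the median of tested ratios from -0.04 to 0.09 and the share of higher among called probes from 41.1% to 67.0%. The scanner ratio gave 20 listed genes higher and 2850 probes higher. A limma test against 2-fold called 3 proteoglycans lower (*Dcn*, *Kera* and *Lum*) and 0 higher, with 455 probes higher and 959 lower. Leaving out 1 mouse gave 6 to 7 proteoglycans lower, 1 to 2 higher and 4 to 5 in the high class, 13 to 19 listed genes higher and 36 to 39 lower, and 1433 to 2482 probes higher and 2591 to 2829 lower. The cause of these changes was not tested. The background surface of the scanner software, added after seeing the data, gave 7 proteoglycans lower and 1 higher. No paired analysis was possible because the mice form 1 group and each was already set against the reference on its own array. *Kera* and *Epyc* are limited by CPE signal at or near the background, and *Dcn* by saturation of the reference.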
